A study of Mus musculus with 15 samples.

Results

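The genes Spi1, Cebpa, Cebpb, Irf8, Maf, Gata6, Pparg, Nr1h3 and Spic encode transcription factors that give macrophages their lineage and tissue identity. They were chosen by symbol, and each of the 9 matched 1 row of a table of 55335 mouse genes. RNA-seq had been run on tumor-associated macrophages (TAMs) from orthotopic hepatocellular carcinoma (HCC) of C57BL/6 mice. The tumors grew from Hepa1-6 cells, a mouse hepatoma line, that were placed in the liver after lentiviral transduction. The control group came from control HCC, the miR-144 group from HCC with miR-144 overexpression and the miR-451a group from HCC with miR-451a overexpression. The miRNA was thus raised in the tumor cells and not in the macrophages that were sequenced. Every group held 5 samples, 15 in all, more per group than the study's text gives for this assay. They were described as untreated, and all tumor cells also carried a luciferase gene. TAMs were sorted with antibodies to CD11b and F4/80, surface proteins that other myeloid cells can share. The labels give neither age nor sex, and they do not say whether the samples came from separate mice, so p-values measure only the spread between these samples, which may be technical. The study asked how the miRNAs in tumor cells shape the macrophages around them.

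PU.1, the product of Spi1, is an ETS-family factor that opens the enhancers of myeloid cells and is needed for the macrophage lineage to form. C/EBP-alpha, C/EBP-beta and IRF8 work with it during the step from progenitor to monocyte and macrophage, and c-MAF (Maf) restrains self-renewal and drives genes of mature resident cells. A further layer follows the tissue: PPAR-gamma in alveolar macrophages, LXR-alpha (Nr1h3) in Kupffer cells and splenic macrophages, GATA6 in large peritoneal macrophages and SpiC in red pulp macrophages that recycle iron.

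Values are FPKM (fragments per kilobase of transcript, scaled to the mapped fragments of the sample), which allow levels of different genes to be set side by side. A mean is given with its SD over the 5 samples of a group (mean ± SD, n = 5). Where 3 levels of a gene are listed, they are those of control, miR-144 and miR-451a TAMs, in this order. The depth implied by the low values was between 15.5 and 30.3 M fragments a sample. Fold changes were taken from log2(FPKM + 1), a scale that compresses changes of genes near or under 1 FPKM. A gene was called at an adjusted p under 0.05 in limma, fitted to all genes above 0. The sorted cells showed macrophage markers in every group. Adgre1, the gene of F4/80, had 137 ± 4.96, 361 ± 24.7 and 354 ± 19.6 FPKM. Cd68, a lysosomal protein of macrophages, fell from 1444 to 919 and 910 FPKM. Of 10 rows of macrophage markers, 8 were higher with miR-144, 7 were higher with miR-451a and 1 was lower in each. Of 10 hepatocyte genes, 8 were listed at 0 in all 15 samples, Alb, Apoa1 and Ttr among them, and so were Cd3e and Cd3g of T cells. Trf (transferrin), also on the hepatocyte list, was abundant, with 125 ± 14.3, 141 ± 14.5 and 143 ± 21.7 FPKM. The groups differed widely: 67.2% of the 11419 genes that reached 1 FPKM on average were called between the miR-144 group and control, and 68.3% between the miR-451a group and control. Median log2 fold changes of these genes were 0.13 and 0.14. A change of a single factor is to be read against that background. In bulk samples, fewer cells of a type and less RNA per cell cannot be told apart.

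Promoter sequence was examined for 6 of the 9 genes. The 4 windows shown belong to 1 gene that rose and 3 that fell in both miRNA groups. Spic, which rose, Nr1h3, which fell, and a downstream start of Irf8 also had windows. These are not shown, and none of the motifs named below was found in them. Each window holds the 250 bases before a transcript start in RefSeq (GRCm38.p6), written 5′ to 3′ on the gene's strand. All 4 genes lie on the plus strand. Capitals mark motif matches. The motifs were chosen after these windows had been read. They are the TATA box (TATAAA), the gamma-activated sequence of STAT factors (TTCNNNGAA), a C/EBP motif (TTGCNNAA) and the half-site of the cyclic AMP response element (TGACG), each searched on both strands. Irf8 is shown at its upstream start (chr8:120736108-120736357), Pparg at the start that lies farthest downstream (chr6:115421816-115422065), Cebpa at chr7:35119043-35119292 and Cebpb at chr2:167688665-167688914.
Irf8: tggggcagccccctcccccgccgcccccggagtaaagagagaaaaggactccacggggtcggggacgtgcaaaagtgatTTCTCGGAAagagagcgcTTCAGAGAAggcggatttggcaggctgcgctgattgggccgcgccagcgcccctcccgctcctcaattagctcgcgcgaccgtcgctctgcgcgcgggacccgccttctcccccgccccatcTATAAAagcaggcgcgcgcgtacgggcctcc
Pparg: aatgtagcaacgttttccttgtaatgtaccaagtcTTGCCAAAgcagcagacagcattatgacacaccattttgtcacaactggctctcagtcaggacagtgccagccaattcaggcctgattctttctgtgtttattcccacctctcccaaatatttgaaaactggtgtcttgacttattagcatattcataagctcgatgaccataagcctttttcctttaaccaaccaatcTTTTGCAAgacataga
Cebpa: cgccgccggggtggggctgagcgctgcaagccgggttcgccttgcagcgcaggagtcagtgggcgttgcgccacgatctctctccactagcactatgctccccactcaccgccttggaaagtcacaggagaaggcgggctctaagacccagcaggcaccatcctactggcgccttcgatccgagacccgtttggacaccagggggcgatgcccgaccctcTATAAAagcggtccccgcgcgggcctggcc
Cebpb: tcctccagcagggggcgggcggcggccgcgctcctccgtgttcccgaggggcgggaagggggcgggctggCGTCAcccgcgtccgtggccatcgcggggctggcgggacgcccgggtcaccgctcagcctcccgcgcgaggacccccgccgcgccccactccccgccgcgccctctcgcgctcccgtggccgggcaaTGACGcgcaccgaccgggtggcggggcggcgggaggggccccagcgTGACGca
The windows differ in kind. The Irf8 window holds 2 gamma-activated sequences, which begin at -171 and -153 from the start, and a TATA box at -31. The Cebpa window holds a TATA box at -30. The Pparg window at this start is poor in GC (40.8%, against 82.4% and 63.6% at 2 other starts of the gene) and holds 2 C/EBP motifs, at -215 and -16, the latter on the minus strand. The Cebpb window is rich in GC (81.6%) and holds 3 half-sites, at -180, -53 and -7, the farthest of them on the minus strand. Among 32851 mouse promoter windows of the same length, 12.4% hold TATAAA, 7.02% hold TTCNNNGAA, 9.56% hold TTGCNNAA and 17.8% hold TGACG. A match of letters is a description and does not show that a factor binds there. A PU.1 motif (GAGGAA) was searched as well, and it occurs in 23.3% of the windows but in none of the 4 shown. Another start of Pparg, not shown, has this motif at -240 and a TATA box on the minus strand at -29.

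The factors split in both miRNA groups. Maf, Irf8 and Spic rose, Cebpa, Cebpb, Gata6, Pparg and Nr1h3 fell, and Spi1 was not called. For miR-144 this gave 3 members higher and 5 lower of 9, where 23.1% of the 29540 genes above 0 were called higher and 9.65% lower. For genes that averaged at least 1 FPKM, as 7 of the members did, these shares were 47.1% and 20.1%. For the miR-451a group the members divided in the same way, beside 24.5% higher and 9.69% lower among all genes and 48.1% and 20.3% among those at 1 FPKM or more. Counts over the gene lists that follow are to be read against these shares, those of genes at 1 FPKM or more where most of a list reached that level, and those of genes above 0 for the peritoneal, Kupffer and alveolar lists, where most did not. The lists were chosen with earlier results of these data known, so their counts are descriptions and no test of a factor. Both comparisons used the same 5 control samples. The samples of the 2 groups did not overlap for 5 members with miR-144 and for 6 members with miR-451a, where 26.9% and 27.9% of all genes above 0 did not overlap. That share was not taken for genes at 1 FPKM or more, so it is an unlike reference for 7 of the members. The member that separated only with miR-451a was Gata6, which did not pass 3 fragments in any miRNA sample. The plot of FPKM by sample shows each of these separations.

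**Figure D1:**
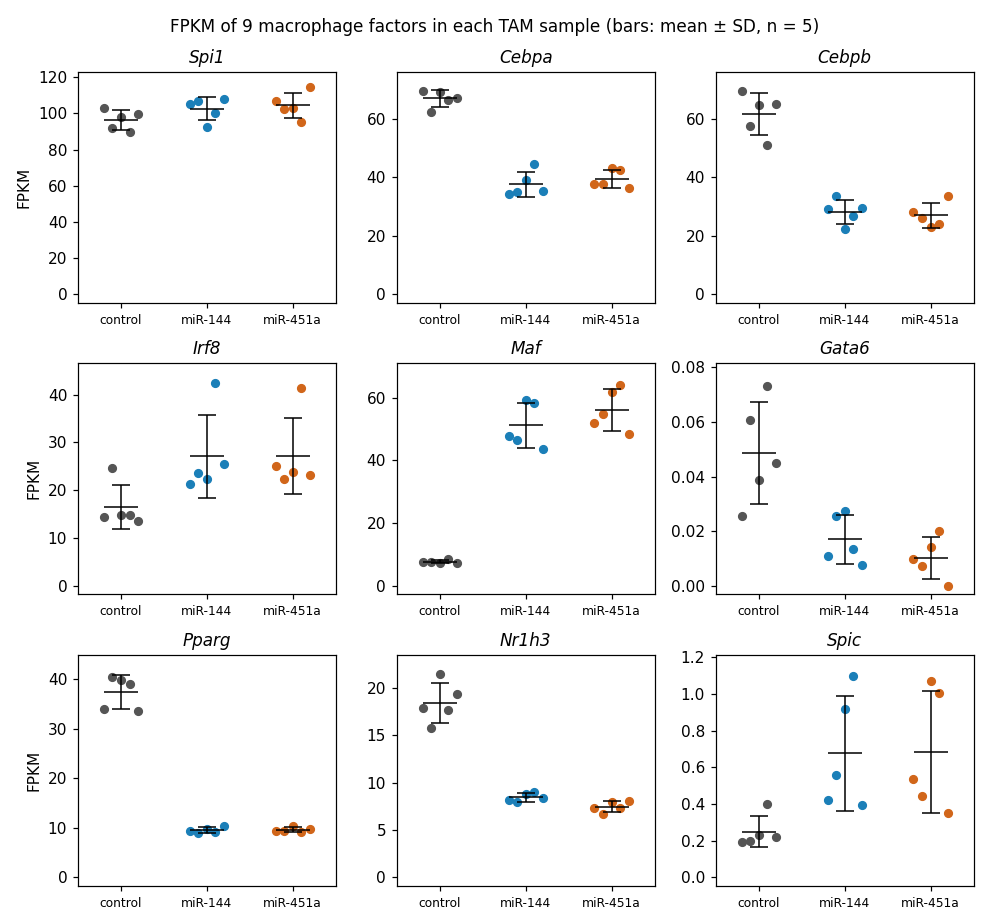
FPKM (vertical axis, linear, a separate scale in each panel) of the 9 factors in control, miR-144 and miR-451a TAMs; each point is a sample and the bars are the mean ± SD (n = 5). Maf is higher and Cebpa, Cebpb, Pparg and Nr1h3 are lower in all 10 miRNA samples than in any control sample, while Spi1 overlaps and Irf8 has a single sample far above the rest in every group and Spic in control.

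Spi1 (ENSMUSG00000002111; 2:91082390-91115756, plus strand, GENCODE M21 on GRCm38) was the most abundant of the 9 factors in all 3 groups. Its FPKM was 103, 91.9, 97.9, 90.0 and 99.7 in control TAMs, 105, 107, 92.8, 101 and 108 with miR-144, and 107, 102, 103, 95.3 and 115 with miR-451a. These ranges overlapped. Its log2 fold changes of 0.09 and 0.11 fell short of the test (standard error 0.05; limma, adjusted p = 0.272 and 0.147), so a small difference in Spi1 was not resolved. Its direction depended on the scaling: with samples centred on their medians the changes were -0.05 and -0.03, and after rescaling to TPM they were 0.16 and 0.20 and passed the test (adjusted p = 0.0479 and 0.0162 from limma).

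ETS relatives of PU.1 and genes it is known to drive were examined next. Fli1, an ETS factor of blood and vessel cells, rose and had 11.6 ± 0.882, 26.6 ± 0.627 and 26.6 ± 0.974 FPKM. Spib, the closest paralog of Spi1, was under 1 FPKM on average in every group and was not called, and neither was Ets1, a lymphoid ETS factor, at 0.849, 1.52 and 1.59 FPKM. Of 20 rows for 19 PU.1 target genes (Itgam is on 2 rows), 10 were higher and 8 lower with miR-144, and 9 were higher and 8 lower with miR-451a. Fcgr1, the high-affinity IgG receptor, rose from 18.0 to 122 and 118 FPKM, with log2 fold changes of 2.69 and 2.64. Csf1r, the receptor for the macrophage growth factor M-CSF, rose from 401 to 691 and 693 FPKM. In contrast, Fcgr2b, the inhibitory IgG receptor, fell from 154 to 36.8 and 40.0 FPKM, and Csf2rb, a subunit of the GM-CSF receptor, fell from 94.2 to 23.0 and 22.8 FPKM. The PU.1 targets thus moved in both directions while the call for Spi1 itself was not made. Their median log2 fold changes were 0.17 and 0.38, beside 0.13 and 0.14 over all genes that reached 1 FPKM on average, as all 20 rows did.

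Maf showed the largest change of the 9 genes. Maf (ENSMUSG00000055435; 8:115682942-115707794, minus strand) encodes c-MAF, a large MAF factor of resident and IL-10-producing macrophages. Its FPKM was 7.48, 7.66, 7.24, 8.49 and 7.45 in control TAMs. It was 47.7, 46.6, 59.3, 58.2 and 43.7 with miR-144 and 51.8, 54.6, 61.8, 64.0 and 48.3 with miR-451a. Every miRNA sample thus lay well above every control sample. Mean levels were 6.67-fold and 7.32-fold those of control. On the log2 scale it rose by 2.58 and 2.71 (standard error 0.09; limma, adjusted p = 2.78e-11 and 1.51e-11).

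Of 10 genes known to depend on large MAF factors, 7 rose, 1 fell and 2 were not called in each comparison, and the median log2 fold changes were 1.20 and 1.21. Of these genes 9 averaged at least 1 FPKM, a class in which 47.1% and 48.1% of all genes were called higher. With median centring, 2 of the 10 were lower. C1qa, a chain of complement C1q, rose from 253 to 986 ± 56.7 and 1065 ± 66.9 FPKM. F13a1, a coagulation factor subunit made by macrophages, rose from 0.325 to 5.95 and 9.84 FPKM, and the anti-inflammatory cytokine Il10 from 0.731 to 4.07 and 3.93 FPKM. The mannose receptor Mrc1 was the list member that fell, from 135 to 75.9 and 85.0 FPKM. Most of the MAF list thus rose, as Maf did, although F13a1 also serves as a monocyte marker. Because the list was chosen with earlier results of these data known, this is a description, and a part of Maf was not tested.

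Irf8 (ENSMUSG00000041515; 8:120736358-120756694, plus strand) encodes the interferon regulatory factor that sets monocyte and dendritic cell fate. Its FPKM was 14.5, 24.7, 14.9, 14.7 and 13.6 in control TAMs. With miR-144 it was 21.3, 23.7, 22.4, 42.4 and 25.5, and with miR-451a it was 25.1, 22.3, 23.9, 41.4 and 23.1. A single sample stood far above the others in every group, namely control replicate 2, miR-144 replicate 4 and miR-451a replicate 4, at 1.69, 1.84 and 1.76 times the median of the rest of its group. The groups overlapped only through control replicate 2. Log2 fold changes were 0.67 and 0.68 (standard error 0.21; limma, adjusted p = 0.0259 and 0.0226).

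The Irf8 call did not hold with every sample left out in turn. It was lost with miR-144 when control replicate 1, 3, 4 or 5 or miR-144 replicate 4 was left out (log2 fold change 0.50 to 0.64, adjusted p = 0.0546 to 0.0619 from limma). With miR-451a it was lost when control replicate 1, control replicate 5 or miR-451a replicate 4 was removed (0.53 to 0.65, adjusted p = 0.0507 to 0.0554). Without all 3 high samples together, an alternative added after the data were seen, the changes were 0.65 and 0.67. No p is given because these samples were left out for their Irf8 values. Each group lost 1 sample that was high by a similar factor, so the similar size says little about their influence. Over all 27 settings the change ranged from 0.50 to 0.82 with miR-144 and from 0.53 to 0.83 with miR-451a. Of 9 measured IRF8-dependent genes, 6 were higher and 3 lower in each comparison, where 47.1% and 48.1% of all genes that averaged at least 1 FPKM, as 8 of the 9 did, were higher and 20.1% and 20.3% lower. Il18, an inflammasome cytokine, rose from 2.42 to 6.25 and 6.41 FPKM, and Naip5 and Naip6, sensors of bacterial flagellin, rose by 0.31 and 0.39 on the log2 scale with miR-144, whereas Naip2 fell by 0.10. The protease Ctss fell from 5141 to 3146 and 2928 FPKM. Irf4, the IRF relative tied to IL-4 responses, fell, with levels of 6.05 ± 0.923, 1.26 ± 0.256 and 1.49 ± 0.144 FPKM.

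Cebpa and Cebpb fell together. Cebpa (ENSMUSG00000034957; 7:35119293-35121928, plus strand) encodes C/EBP-alpha, which primes progenitors for the myeloid path. Its FPKM was 69.6, 62.2, 69.2, 66.2 and 67.2 in control TAMs, 34.2, 35.0, 39.2, 44.4 and 35.3 with miR-144, and 37.7, 37.6, 43.0, 42.6 and 36.2 with miR-451a. No miRNA sample reached the lowest control sample. Control levels were 1.78-fold and 1.70-fold those of the miRNA groups, with log2 fold changes of -0.82 and -0.75 (standard error 0.07; limma, adjusted p = 2.83e-07 and 6.85e-07).

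Cebpb (ENSMUSG00000056501; 2:167688915-167690418, plus strand, a single exon) encodes C/EBP-beta, which is known to drive alternative activation genes in macrophages. Its FPKM was 69.4, 57.4, 64.6, 51.1 and 65.1 in control TAMs, 29.1, 33.6, 22.4, 26.9 and 29.5 with miR-144, and 28.3, 26.0, 23.2, 23.9 and 33.8 with miR-451a. Again no miRNA sample reached the lowest control sample. Log2 fold changes of Cebpb were -1.10 and -1.16 (standard error 0.12; limma, adjusted p = 3.39e-06 and 1.77e-06). Cebpb overlaps Tmem189 on the opposite strand, with 60.5 ± 7.65, 39.1 ± 3.95 and 38.7 ± 3.07 FPKM. Whether the counting used strand is not given in the sources used here, so fragments of Cebpb and Tmem189 cannot be told apart with certainty.

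A ratio of 2 genes within each sample does not depend on the scaling of the sample. The ratio of Cebpa to Cebpb, chosen after the values were seen, was 1.10 ± 0.115, 1.36 ± 0.314 and 1.50 ± 0.324. The log2 difference from control was 0.29 with miR-144 (two-sided exact permutation test, p = 0.119, 0.143 after adjustment over 6 tests) and 0.43 with miR-451a (exact permutation p = 0.0317, adjusted 0.0475). The latter was lost on removal of control replicate 1 or 5, or of miR-451a replicate 1, 2, 3 or 4, at 0.34 to 0.46 (exact permutation p = 0.0556 to 0.0635). The former passed before adjustment without miR-144 replicate 2, at 0.38 (exact permutation p = 0.0317). A shift between the pair was therefore not firmly resolved.

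Cebpd, a C/EBP gene of the acute-phase response, rose, with levels of 1.93 ± 0.242, 6.13 ± 0.964 and 6.79 ± 0.866 FPKM, opposite to Cebpa and Cebpb. The list of 10 C/EBP-beta-dependent genes did not move as one: 4 were higher and 4 lower with miR-144, and 4 were higher and 3 lower with miR-451a. With samples centred on their medians, 6 were lower with miR-451a. Chil3 (Ym1), a chitinase-like lectin, had 4789 ± 803 FPKM in control and under 1 FPKM in the miRNA groups (0.352 ± 0.117 and 0.431 ± 0.164). Retnla (Fizz1), at 415 FPKM in control, was listed at 0 in the 10 miRNA samples. Chil3 and Retnla have close relatives in the genome, as have Ear2 and the Naip genes, and how the counting shared reads between relatives is not given in the sources used here. Il13ra1, a receptor subunit for IL-13, rose from 4.13 to 10.3 FPKM in both groups.

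Pparg showed the largest fall of the 9 genes on the log2 scale. Pparg (ENSMUSG00000000440; 6:115360951-115490399, plus strand) encodes PPAR-gamma, a lipid-sensing nuclear receptor needed for alveolar macrophages. Its FPKM was 34.0, 40.5, 39.9, 39.1 and 33.5 in control TAMs, 9.40, 8.90, 9.83, 9.18 and 10.4 with miR-144, and 9.35, 9.31, 10.5, 9.14 and 9.76 with miR-451a. The miRNA samples lay in a narrow band far under the control samples. Control levels were 3.91-fold and 3.89-fold those of the miRNA groups. Log2 fold changes of Pparg were -1.86 and -1.85 (standard error 0.06; limma, adjusted p = 7.11e-12 and 6.43e-12).

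Of 11 measured PPAR-gamma target genes, 7 fell, 3 rose and 1 was not called in each comparison, with median log2 fold changes of -1.01 and -1.03. All 11 averaged at least 1 FPKM, a class in which 20.1% and 20.3% of all genes were called lower and 47.1% and 48.1% higher. Centred on sample medians, 1 gene was higher with miR-451a. Fabp4, a fatty acid binding protein, had 119 ± 7.59, 22.3 ± 1.05 and 19.8 ± 0.638 FPKM. The scavenger receptor Cd36 fell from 200.3 to 45.4 and 41.8 FPKM, and Plin2, a lipid droplet coat protein, from 322 to 151 and 143 FPKM. Adipoq, the adipokine adiponectin, was at 21.4 FPKM in control and under 0.1 FPKM on average in both miRNA groups. In the other direction, Pdk4, a brake on glucose oxidation, rose from 1.78 to 5.75 and 6.52 FPKM. Of 11 measured alveolar macrophage genes, 7 fell and 3 rose in each comparison, where 9.65% and 9.69% of all genes above 0 were lower. Of the 11, 5 averaged at least 1 FPKM. Those that fell included Siglecf from 2.26 to 0.357 and 0.355 FPKM and the eosinophil-associated ribonuclease Ear2 from 35.6 to 0.230 and 0.339 FPKM, and those that rose included Lpl, a lipase of both lists, from 92.6 to 112 and 101 FPKM and Krt19 from 0.515 to 1.12 and 1.08 FPKM. Car4 was at 1.24 FPKM in control and listed at 0 in all 10 miRNA samples. Chil3 and Fabp4 also belong to the alveolar list, so the lists are not separate evidence.

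Nr1h3 (ENSMUSG00000002108; 2:91184061-91202834, minus strand) encodes LXR-alpha, an oxysterol receptor of cholesterol efflux and of Kupffer cell identity. Its FPKM was 17.8, 15.8, 21.4, 17.7 and 19.3 in control TAMs, 8.15, 7.95, 8.78, 9.05 and 8.33 with miR-144, and 7.29, 6.73, 7.99, 7.27 and 8.02 with miR-451a. All miRNA samples lay under all control samples. On the log2 scale the changes of Nr1h3 were -1.03 and -1.19 (standard error 0.07; limma, adjusted p = 1.78e-08 and 3.49e-09). Nr1h2, the LXR-beta gene, was not among the genes called, with 16.4 FPKM in control and 18.4 and 19.8 in the miRNA groups.

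LXR target genes moved both ways. Of 14 genes, 7 were higher and 7 lower in each comparison. Apoe, the main carrier of effluxed cholesterol, rose from 1603 to 4536 and 3622 FPKM, and the efflux transporter Abca1 rose from 48.0 to 92.3 and 92.9 FPKM. Its partner Abcg1 fell from 100.5 to 59.7 and 58.2 FPKM, and the fatty acid desaturase Scd1 fell from 58.9 to 12.7 and 13.3 FPKM. Efflux genes thus stood on both sides of the list. Within samples, the ratio of Pparg to Nr1h3 was 2.06 ± 0.333, 1.13 ± 0.0853 and 1.29 ± 0.0629. This ratio was likewise chosen after the values were seen. Pparg thus fell further than Nr1h3, by 0.85 and 0.66 on the log2 scale of the ratio (exact permutation p = 0.00794 for both, the smallest that 5 samples against 5 can give, adjusted 0.0238).

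**Figure D2:**
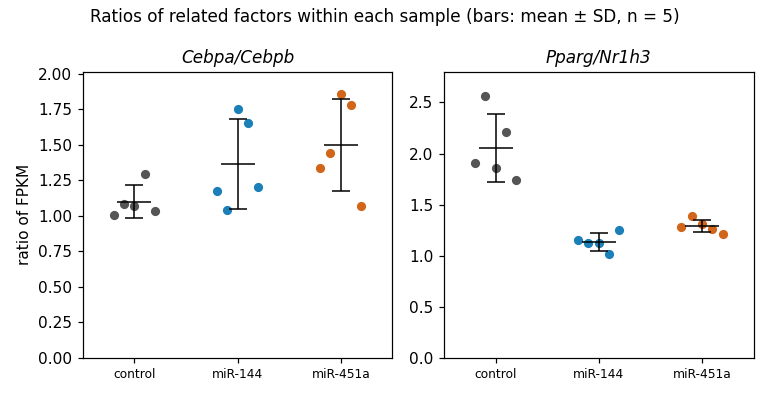
Ratio of FPKM (vertical axis, linear, from 0) of Cebpa to Cebpb and Pparg to Nr1h3 in each sample, with the mean ± SD (n = 5) of control, miR-144 and miR-451a TAMs. The Cebpa to Cebpb ratios overlap between groups, and the Pparg to Nr1h3 ratio falls from 2.06 to 1.13 and 1.29.

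Spic and Gata6, factors of red pulp and of peritoneal macrophages, were the lowest of the 9 factors. Spic (ENSMUSG00000004359; 10:88674772-88685015, minus strand) had 0.195, 0.200, 0.234, 0.400 and 0.219 FPKM in control TAMs, 0.421, 0.556, 0.917, 1.10 and 0.393 with miR-144, and 0.539, 0.446, 1.07, 1.01 and 0.351 with miR-451a. All 15 values lay above the level of 3 fragments, which was 0.0432 to 0.0843 FPKM of Spic. Replicates 3 and 4 of both miRNA groups were high, and the groups overlapped through control replicate 4. Log2 fold changes were 0.41 for both (standard error 0.14; limma, adjusted p = 0.0356 and 0.0335). This call was fragile. With miR-144 it was lost without control replicate 1, 2, 3 or 5 or miR-144 replicate 3 or 4 (0.32 to 0.40, adjusted p = 0.0641 to 0.0913 from limma). With miR-451a it was lost without the same control samples or miR-451a replicate 3 or 4 (0.33 to 0.41, adjusted p = 0.0603 to 0.0873), and with median centring it was lost in both comparisons (0.27 for each, adjusted p = 0.0910 and 0.0985).

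Of 8 red pulp macrophage genes, 5 were higher and 2 lower in each comparison, and 6 averaged at least 1 FPKM, a class with 47.1% and 48.1% of genes higher and 20.1% and 20.3% lower. The iron exporter Slc40a1 rose from 2.40 to 19.5 and 20.3 FPKM and the hemoglobin receptor Cd163 from 0.958 to 5.69 and 6.10 FPKM. Hmox1, the heme oxygenase, fell from 151 to 123 and 119 FPKM. The adhesion molecule Vcam1 rose from 0.696 to 1.45 and 1.54 FPKM. Genes of iron and hemoglobin handling thus did not share 1 direction. Cd163 is also on the MAF list and Slc40a1 on the Kupffer list, so counts of these lists are not separate evidence.

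Gata6 (ENSMUSG00000005836) had 0.0257, 0.0607, 0.0387, 0.0732 and 0.0449 FPKM in control TAMs, 0.0109, 0.0258, 0.0272, 0.0137 and 0.00768 with miR-144, and 0.00983, 0.00714, 0.0142, 0.0202 and 0 with miR-451a. A floor of 3 fragments per sample corresponded to 0.0287 to 0.0335 FPKM of Gata6 in control samples and reached 0.0510 in the miR-451a group. Gata6 passed the floor in 4 of 5 control samples and in 0 of 10 miRNA samples. Floors cover counting error only. The difference passed limma (adjusted p = 0.00657 and 0.00148), but no fold is given because it rests on a few fragments per sample.

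Peritoneal macrophage genes, 17 of 18 of them above 0 somewhere, gave 7 higher and 3 lower in the miR-144 group, 8 higher and 2 lower in the miR-451a group, and with median centring 7 were lower in each comparison. F10, coagulation factor X, fell, with levels of 133 ± 15.7, 2.30 ± 0.280 and 1.77 ± 0.341 FPKM. Aspa and Alox15 stayed under 0.1 FPKM on average in every group, and Tgfb2 rose by 0.39 and 0.50 on the log2 scale. Like Gata6, Aspa and Alox15 were thus barely detected, while F10 was abundant in control TAMs.

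Genes of Kupffer cells and microglia, resident macrophages of liver and brain, were set beside these factors. Clec4f, which marks Kupffer cells, was listed at 0 in all samples. Vsig4 and Timd4 were under 0.5 FPKM on average in every group, and both were called higher. In all, 5 of 12 measured Kupffer genes were higher and 0 lower in each comparison. Without control replicate 1, and with quantile normalization, a single gene was lower in each. With median centring 3 were higher and 4 lower, and with a filter at an average of 1 or 5 FPKM 2 were higher. Cd5l, an LXR-dependent survival protein, rose and varied widely in the miRNA groups, with 3.40 ± 0.170, 29.8 ± 15.7 and 27.1 ± 14.1 FPKM. Of 12 microglia genes, 9 rose in the miR-144 group and 11 in the miR-451a group, and 0 fell, except that 1 was lower with median centring. Of the 12, 10 averaged at least 1 FPKM, where 47.1% and 48.1% of all genes were higher. Fcrls rose from 5.42 to 93.5 and 113 FPKM and P2ry12 from 0.670 to 3.70 and 2.18. The defining microglial factor Sall1 was listed at 0.

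**Figure D3:**
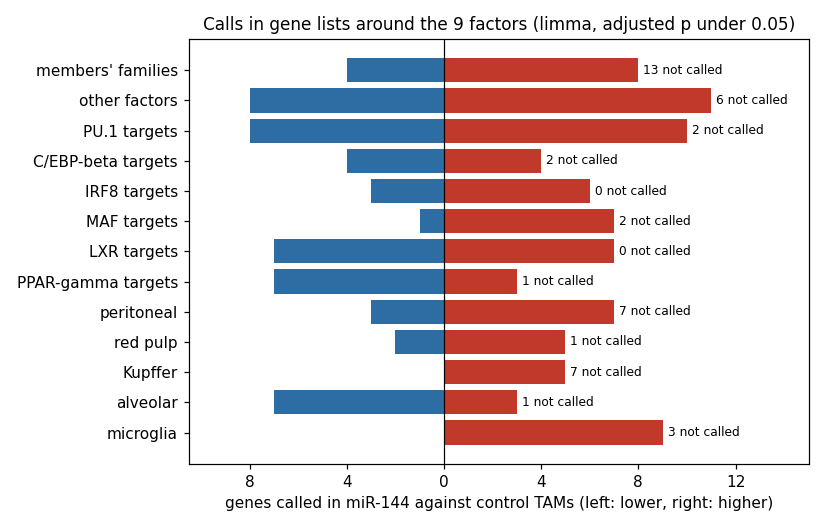
Number of genes called higher (bars to the right of 0) and lower (bars to the left) in miR-144 against control TAMs for gene lists around the 9 factors, with the number not called beside each bar (limma, adjusted p under 0.05). MAF targets rise 7 to 1 and PPAR-gamma targets and alveolar genes fall 7 to 3, while the PU.1, C/EBP-beta and LXR target lists divide.

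Other regulators were counted as well. Of 25 measured relatives in the ETS, C/EBP, MAF, IRF, GATA, PPAR and LXR families, 8 were higher and 4 lower in each comparison, and with median centring 11 were lower. Of the 25, 17 averaged at least 1 FPKM. Of 25 other transcription factors of macrophage differentiation, 11 were higher and 8 lower with miR-144 and 12 higher and 9 lower with miR-451a. Of these 22 reached 1 FPKM, a class in which 47.1% and 48.1% of all genes were higher and 20.1% and 20.3% lower. Bhlhe40, a basic helix-loop-helix repressor, fell, with levels of 62.5 ± 3.40, 4.13 ± 0.288 and 3.94 ± 0.182 FPKM. Egr2, an IL-4-responsive factor, fell likewise, from 28.2 to 1.94 and 1.34 FPKM. Notch2 rose from 18.8 to 45.5 and 47.5 FPKM and Id3, a Kupffer cell factor, from 2.30 to 6.59 and 7.14. Runx1, a partner of PU.1, rose by 0.43 and 0.44 on the log2 scale.

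Markers of other cells moved as well, and their part in the changes of the 9 factors was not tested. Of 9 dendritic cell markers, all were above 0 somewhere, and their summed level was 92.0 to 115 FPKM in control and 4.36 to 6.21 in the miRNA groups, mostly Itgax (CD11c). Batf3, a factor of cross-presenting dendritic cells, fell from 7.81 to 1.01 and 1.02 FPKM and Siglech rose from 0.0134 to 0.203 and 0.157 FPKM, while Flt3 and Zbtb46 stayed under 0.1 FPKM on average. The sum of 9 stromal markers above 0 was 129 to 165 FPKM in control and 214 to 322 in the miRNA groups, and Col1a1 rose from 70.0 to 102 and 124 FPKM. The sum of 7 B cell markers was 8.52 to 11.1 FPKM in control and 75.9 to 100.2 in the miRNA groups, mostly Ighm. Cd79b, a chain of the B cell receptor, rose from 0.185 to 1.15 and 1.38 FPKM, while Ms4a1 and Pax5 averaged under 0.1 FPKM in every group. The sum of 8 monocyte markers was 4023 to 5791 FPKM in control and 21.3 to 32.2 in the miRNA groups, a drop that was nearly all Chil3, the 1 monocyte marker called lower (2 were with median centring). Against it, 4 monocyte markers rose in the miR-144 group and 6 in the miR-451a group, among them Ccr2 from 0.161 to 1.05 and 1.39 FPKM and Plac8 from 3.05 to 8.46 and 7.19 FPKM. Of 7 endothelial markers above 0 the sum was 45.7 to 50.4 FPKM in control and 10.7 to 13.5 in the miRNA groups, mostly Vwf, while Kdr rose from 2.80 to 3.84 and 4.07 FPKM, a call that quantile normalization ended. The sum of the neutrophil list (8 of 9 above 0) was 78.9 to 95.9 FPKM in control and 48.5 to 57.2 in the miRNA groups. The sum of T and NK cell markers (7 of 10 above 0) was 1.53 to 1.92 FPKM in control and 5.45 to 9.57 in the miRNA groups, mostly Cd4, which rose from 1.32 to 6.86 and 7.16 FPKM. Sums of eosinophil and mast cell markers stayed under 4 FPKM and those of erythroid markers under 1 FPKM in every sample.

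**Figure D4:**
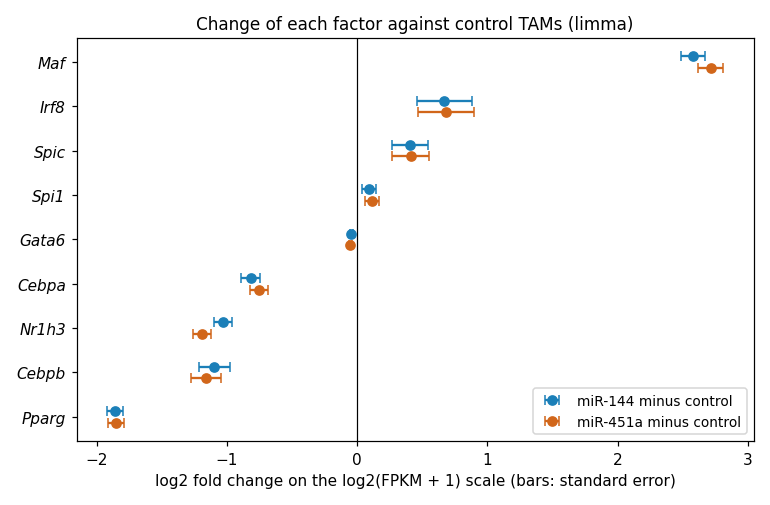
Log2 fold change on the log2(FPKM + 1) scale (horizontal axis) of each factor in miR-144 and in miR-451a TAMs against the same 5 control samples, with the standard error from limma as bars. Each factor has the same sign in both comparisons, from 2.58 and 2.71 for Maf to -1.86 and -1.85 for Pparg.

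No factor was called when TAMs of the miRNA groups were compared with each other. Of the 9 members, 0 were called between them in limma, and 0% of all 29540 genes were called. At an unadjusted p under 0.05, 1459 genes and 1 member passed, Nr1h3. Its difference, miR-451a minus miR-144, was -0.16 on the log2 scale (95% interval -0.31 to -0.02, adjusted p = 0.909 from limma). The interval for Maf was -0.07 to 0.34 and that for Pparg was -0.12 to 0.13. Irf8 had the widest interval, -0.45 to 0.47, so a moderate difference in Irf8 was not detectable. The ratio of Pparg to Nr1h3 was higher with miR-451a by 0.19 on the log2 scale (exact permutation p = 0.0159, adjusted 0.0318). It used the member with the smallest p of the 9, so it is not separate evidence.

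The order of the levels changed between groups. In control TAMs it was Spi1, Cebpa, Cebpb, Pparg, Nr1h3, Irf8, Maf, Spic and Gata6 from high to low, and the ranges overlapped between Cebpa and Cebpb and between Nr1h3 and Irf8. With miR-144 it was Spi1, Maf, Cebpa, Cebpb, Irf8, Pparg, Nr1h3, Spic and Gata6. There the ranges of Maf and Cebpa, of Cebpb and Irf8 and of Pparg and Nr1h3 overlapped. With miR-451a it was Spi1, Maf, Cebpa, Irf8, Cebpb, Pparg, Nr1h3, Spic and Gata6, where Irf8 overlapped Cebpa and Cebpb. Maf thus stood seventh in control TAMs and next to Spi1 in both miRNA groups.

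Within groups, some factors varied together. After removal of the group means, the deviations of Spi1 and Cebpb correlated by 0.92 over the 15 samples, those of Maf and Spic by 0.93 and those of Spi1 and Maf by -0.85. These are descriptions without a test, and the values share the depth and base composition of a library. The genes most like a member by this measure were Piezo1, Bop1 and Fem1a for Spi1 (r = 0.98, 0.97 and 0.95), Fem1a, Piezo1 and Isyna1 for Cebpb (0.94, 0.94 and 0.93), and Asah1, Tbc1d4 and Sesn1 for Maf (0.96, 0.95 and 0.95). For Cebpa they were Trav13-4-dv7, Il4ra and Ctsd (0.96, 0.95 and 0.92), for Nr1h3 Rhog, H2-K2 and Nat6 (0.90, 0.86 and 0.86), and for Pparg Tmem19, Gga2 and Lhfpl2 (0.88, 0.80 and 0.78). The lowest were those of Irf8, with 4930533O14Rik, Srsf3 and Paf1 at 0.78, 0.78 and 0.76.

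An index of base composition moved with part of this variation. A GC index was computed for each sample as the mean log2(FPKM + 1) of the tenth of genes richest in GC minus that of the tenth poorest in GC, with 1142 genes each. It ranged from 0.39 to 0.53 in control, from 0.33 to 0.45 in the miR-144 group and from 0.36 to 0.53 in the miR-451a group. Deviations of Spi1 from its group means correlated with those of the index (r = 0.84, permutation p = 0.00129, adjusted 0.0116 over 9 members; rho = 0.84, adjusted permutation p = 0.00405). The same held for Cebpb (r = 0.77, adjusted permutation p = 0.0152; rho = 0.81, adjusted 0.00756). The samples whose deviations of the index lay farthest from the median deviation were miR-144 replicate 3 and control replicate 2. Without them, r was 0.78 for Spi1 and 0.71 for Cebpb. Gata6 gave r = -0.72 (adjusted permutation p = 0.0215; rho = -0.88, adjusted 0.00445), at a few fragments per sample. For Maf, r was -0.53 (adjusted permutation p = 0.0913) and rho was -0.60 (adjusted 0.0115), and Cebpa, Irf8, Pparg, Nr1h3 and Spic did not pass by either measure. The longest transcripts of Spi1 and Cebpb hold 58.9% and 67.2% GC. That of Cebpa, with r = 0.01, holds 62.6%, and that of Gata6 holds 55.3%. The correlations thus did not follow a member's own GC content in every case.

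**Figure D5:**
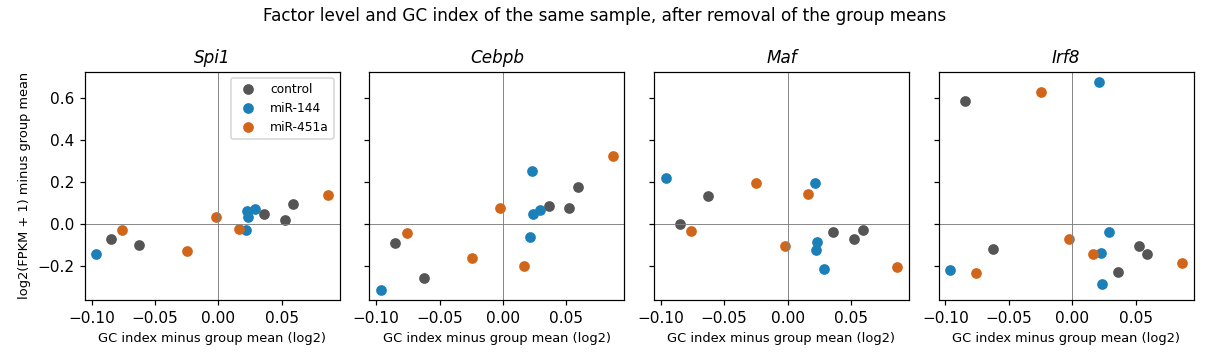
Deviation of log2(FPKM + 1) of Spi1, Cebpb, Maf and Irf8 from the group mean (vertical axis) against the deviation of the sample's GC index from the group mean (horizontal axis, log2), with 1 point per sample in 3 groups of 5. Spi1 and Cebpb rise with the index (r = 0.84 and 0.77), and the 3 high Irf8 samples lie on both sides of 0.

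With the GC index as a covariate, an alternative added after the data were seen, Spi1 was called in both comparisons. Its log2 fold changes were then 0.15 for both groups (adjusted p = 0.00434 and 0.00309 from limma). Irf8 was then no longer called with miR-144 (0.61, adjusted p = 0.0656), and Spic was called in neither comparison (0.35 and 0.38, adjusted p = 0.0939 and 0.0583). Cebpa, Cebpb, Gata6, Maf, Pparg and Nr1h3 kept their calls and their direction.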

How the data were processed

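The study comprised RNA-seq of TAMs in 15 samples, 5 each of control, miR-144 and miR-451a tumors, grouped by the genotype in their labels, which name no batch. The authors deposited FPKM per gene and sample, that is, values already divided by transcript length and by mapped fragments. The submitters' processing notes name FastQC 0.11.2, STAR and StringTie. The genome build and annotation are not given in the sources used here. FPKM is not a count, so no count model was used, and depth is only implied: FPKM times length falls on steps of 1 fragment, on which 34.8% to 47.3% of low values lay (10% by chance). Depth was 23.7 to 27.6 M fragments in control, 17.9 to 27.2 M with miR-144 and 15.5 to 30.3 M with miR-451a.

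FPKM was transformed as log2(FPKM + 1) and fitted with limma 3.58.1 (R 4.3.3) with a mean-variance trend and 3 groups in 1 fit, with Benjamini-Hochberg adjustment. Calls of named genes come from the fit over 29540 genes above 0, and counts over all genes also from the 11419 genes averaging 1 FPKM or more, which 7 of the 9 members do. Ratios were compared on the log2 scale with a two-sided exact permutation test, and correlations with the GC index were tested with 100000 permutations. Positions come from GENCODE M21, where 99.67% of the identifiers occur, and promoters from RefSeq. Of 50-base stretches of their longest transcript, 0.491% of Maf and none of the other members' occur in other genes. Python 3.11.15 with numpy 2.4.6, pandas 2.3.3 and matplotlib 3.10.9 did the rest.

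The members and gene lists were chosen with earlier results of these data known. Beside the members, the rule for named genes took from each list the first 3 genes and the 2 largest rises and 2 largest falls among those called in miR-144 against control, and for each member above 1 FPKM the 3 genes most like it. A few further list genes were named after their values were seen (Sall1 and Nr1h2), and some that the rule would name are not reported here. Simulated data with known changes were used to check the limma step. Alternatives were a pseudocount of 0.1, other filters (none, or an average of 5 FPKM), scaling to TPM, quantile normalization or centring on medians, limma with a replicate block, without the trend or with only the groups compared, and each sample left out in turn. Leaving out 3 samples together and a GC covariate were added after the data were seen.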

Additional observations from a re-analysis of the deposited data

Results flagged for a closer look

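In each group of 5, a sample was singled out where its gap to the nearest other sample was a large part of the whole range (Dixon's test, 95% level). Of 27 groups tested, for 9 members in 3 groups, 4 gave such a sample, and chance alone flags about 1 in 20 groups, or 1.35 of 27. For Irf8, the sample far from the others was control replicate 2 at 24.7 FPKM, where the rest lay between 13.6 and 14.9. It was miR-144 replicate 4 at 42.4 FPKM, where the rest lay between 21.3 and 25.5, and miR-451a replicate 4 at 41.4 FPKM, where the rest lay between 22.3 and 25.1. For Spic, control replicate 4 stood apart at 0.400 FPKM, where the rest lay between 0.195 and 0.234. No cause was tested for these samples. Without the 3 high Irf8 samples, the log2 fold changes of Irf8 against control were 0.65 and 0.67, given without a p because the samples were left out for their Irf8 values, and those of Spic were 0.31 and 0.33 (adjusted p = 0.129 and 0.102).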

How the results depend on the processing

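Cebpa, Cebpb, Maf, Pparg and Nr1h3 kept their direction and their calls against control in all 27 settings, the reported one included, and Gata6 in the 25 that kept it. Requiring a mean of at least 5 FPKM left fewer genes to test and lowered the counts of genes called to 4776 (miR-144) and 4821 (miR-451a). Between the miRNA groups, 0 to 2 genes were called with a single sample left out (2 without miR-144 replicate 4 or 5 or miR-451a replicate 3, 1 without miR-451a replicate 5) and 1 with 3 samples left out together. Median centring reversed Spi1 to -0.0454 (miR-144) and -0.0327 (miR-451a), and with quantile normalization Spi1 passed with miR-451a at 0.17 (adjusted p = 0.0475). Quantile normalization ended the Spic call, at 0.33 and 0.32 (adjusted p = 0.0933 and 0.101). Scaling moved the share of calls that were higher: 70.1% and 70.3% as reported, 50% and 49.6% with median centring, 53.5% and 53.4% with quantile normalization and 76.5% and 77.3% after rescaling to TPM. Other reversals were small differences of miR-451a minus miR-144, none of them called. Pparg turned to -0.0025 with median centring and -0.0030 with quantile normalization. Spic turned to -0.0031 with a pseudocount of 0.1, -0.0085 with median centring and -0.0089 with quantile normalization, and Spi1 to -0.0005 with the GC covariate. With a single sample left out, this difference ranged from -0.145 to 0.1805 for Irf8, -0.0205 to 0.0375 for Pparg, -0.0126 to 0.0552 for Spi1 and -0.0786 to 0.0877 for Spic. The cause was not tested. Samples share the numbers 1 to 5, but deviations from group means of same-numbered samples correlated by -0.01, 0.14 and 0.10 on average, and 1, 3 and 4 of 5 samples correlated best with their own number, a hint of shared variation in the comparisons with miR-451a. Same-numbered pairs did not all correlate by more than 0.1 in any comparison, and the labels name nothing shared, so samples were not treated as paired. With the replicate block, 7711 and 7859 genes and 8 and 8 members were called against control, and 0 between the miRNA groups, and no call of a member changed. Depth limits Gata6, which passed the level of 3 fragments in 4 of 15 samples.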
